A study of Mus musculus with 12 samples.

Results

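The transcriptional response of mouse ventral midbrain neurospheres to 2 compounds given together was taken from 6 of the 12 RNA-seq libraries of the series, the 3 titled GW3965+CT99021 and the 3 titled Control, set against each other by replicate number. The cultures came from E11.5 embryos of the CD-1 background, were grown as spheres for 3 days, and then received the compounds or the solvent DMSO in N2 medium for 5 h. The GW3965+CT99021 group received both the liver X receptor (LXR) agonist GW3965 and CT99021, an inhibitor of glycogen synthase kinase 3 (GSK3). The CT99021 and GW3965 groups, with 3 libraries each, received 1 compound, and Control received DMSO alone. A neurosphere is a free-floating aggregate grown from dissociated tissue and holds progenitors and their progeny in unsorted proportions, so in these bulk data fewer cells of a type and less RNA per cell cannot be told apart. Total RNA was measured, and levels are given as CPM, each gene's read count scaled to a common library total after a correction for composition.

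LXR is a nuclear receptor that pairs with RXR, is switched on by oxysterols, and activates genes of cholesterol export and, through SREBP-1, of fatty acid synthesis. GSK3 phosphorylates beta-catenin for destruction, and when it is inhibited beta-catenin enters the nucleus and activates Wnt target genes with TCF and LEF factors. GSK3 also acts outside this pathway, on metabolic and growth regulators downstream of insulin. In the ventral midbrain both LXR and Wnt signalling have been studied for their part in the formation of dopaminergic neurons.

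The 3 GW3965+CT99021 libraries, in the order of replicates 1, 2 and 3, held 19248735, 13660184 and 11499130 counts over gene rows, and the 3 Control libraries 21314093, 19984548 and 12268085. Libraries with the same replicate number resembled each other in all groups, and the first principal component, with 49.7% of the variance, set those numbered 3 apart. The number therefore entered every test as a block. GW3965+CT99021 replicate 2 matched its number least. Its deviations from the group mean correlated at 0.531 with Control, 0.571 with CT99021 and 0.496 with GW3965 replicate 2. The labels do not say what a number marks or whether replicates were separate cultures, so the p-values measure no more than how these libraries vary, and that variation may be technical. Per the file headers, the GW3965+CT99021 libraries carried the index labels TS6, TS1 and TS10 and the Control libraries TS1, TS10 and TS6. The 4 libraries of each replicate number carried 4 different index labels, and no header names a sequencing pool. Lmx1a and Foxa2, factors of the midbrain floor plate, were detected in all 6 libraries, at 11.4, 16.1 and 36.8 CPM for Lmx1a in GW3965+CT99021 and 10.002, 16.6 and 42.0 CPM in Control.

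Of 15608 genes tested, edgeR called 3162 (20.3%) at an adjusted p under 0.05 (35.1% at an unadjusted p under 0.05), 1765 higher (11.3%) and 1397 lower (8.95%) with both compounds, and "rose" and "fell" below are used of such calls only. Most changes were small. At least 1 log2 unit separated the groups in 117 genes that rose (0.75%) and 224 that fell (1.44%), and 90% of all tested genes had a log2 fold change between -0.73 and 0.65, with a median of 0.01. The 3 GW3965+CT99021 libraries lay wholly above the 3 Control libraries in 1424 genes (9.12%) and wholly below in 1277 (8.18%). Of the 3162 called genes, 3150 (20.2% of all tested) moved the same way in all 3 pairs. The fit compares within replicate numbers, so this agreement largely follows from the call and is no separate support. Without the replicate number in the fit, edgeR called 18 genes (1867 at an unadjusted p under 0.05), 3 higher and 15 lower. Those 18 include Srebf1, Scd1, Nipal3, Fam100b, Gm7367, Atg13, Maf1, Ulk1 and Nkx2-2, and every call outside the 18 rests on the comparison within replicate numbers. The number of calls was 1326, 1176 and 2053 without Control replicates 1, 2 and 3, and 1526 without GW3965+CT99021 replicate 2.

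**Figure D1:**
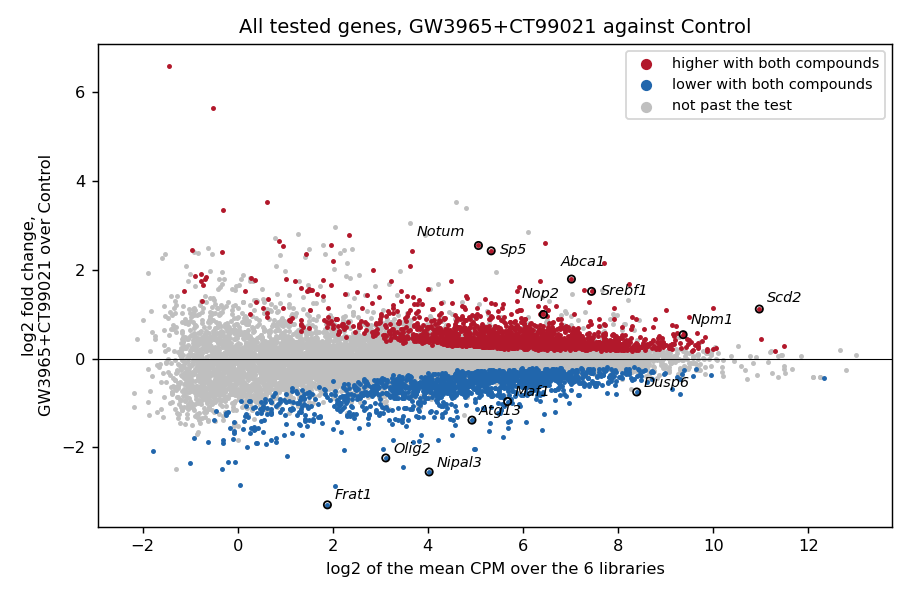
Log2 fold change of GW3965+CT99021 over Control (vertical axis) against the log2 mean CPM of the 6 libraries (horizontal axis) for the 15608 tested genes, coloured by the edgeR call. Calls lie on both sides of 0 at all but the lowest levels, and selected genes are circled and labelled.

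Genes that LXR is known to activate stood among the clearest increases. Srebf1, the gene of the lipogenic factor SREBP-1, listed on chromosome 11 at position 60012590 of mm9, had 231, 285 and 256 CPM in GW3965+CT99021 libraries and 86.1, 106 and 78.8 CPM in Control libraries. All 3 treated libraries lay above all 3 controls, and the log2 fold change was 1.51 ± 0.09 (SE, 2.86-fold, edgeR adjusted p = 3.04e-05). Abca1, an exporter of cholesterol to apolipoproteins (chromosome 4, position 53043660), had 126, 109.8 and 363 CPM with both compounds against 39.1, 27.3 and 113 CPM in Control. The groups overlapped because both libraries numbered 3 were high, whereas within each pair the library with both compounds was about as far above its control (log2 fold change 1.79 ± 0.17, edgeR adjusted p = 0.000266). Lpcat3, an enzyme that remodels membrane phospholipids, had 54.2, 62.9 and 71.7 CPM with both compounds against 36.5, 36.3 and 39.6 CPM in Control and did not overlap (0.74 ± 0.08, edgeR adjusted p = 0.000396).

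Of 11 tested sterol transport targets of LXR, Abca1, Abcg1, Lpcat3 and Mylip rose and Abcg4 fell, beside 11.3% of all genes higher and 8.95% lower. The list median was -0.02, and 2 rose without Control replicate 2 or 3 or GW3965+CT99021 replicate 1. Abcg1, which moves sterols to high-density lipoprotein, had 32.4, 22.9 and 23.1 CPM in GW3965+CT99021 libraries against 19.7, 13.7 and 9.04 CPM in Control libraries, without overlap (0.90 ± 0.23, edgeR adjusted p = 0.0208). Its call was lost when Control replicate 2 or 3 or GW3965+CT99021 replicate 1 or 3 was left out. Mylip, a ubiquitin ligase (0.65 ± 0.20, edgeR adjusted p = 0.0474), passed in only 1 of 12 fits that each left out a library, and Abcg4, a brain sterol transporter (-0.35 ± 0.11), in 4 of them. Apoe, the main lipid carrier of the brain, had 149, 109.8 and 114 CPM with both compounds against 144, 111 and 131 CPM in Control, with no call and no stable sign (-0.05 ± 0.11). Abcg5 and Abcg8 were below the filter on low counts. Among the 7 genes of LXR and RXR receptors 0 rose (1 without GW3965+CT99021 replicate 3) and 2 fell. Nr1h2, which encodes LXR beta, had 32.3, 34.6 and 30.1 CPM with both compounds against 41.4, 44.5 and 39.0 CPM in Control (-0.36 ± 0.09, edgeR adjusted p = 0.0209, lost when Control replicate 1 or 2 or GW3965+CT99021 replicate 2 or 3 was left out), and Rxrb, its partner, fell by 0.43 on the log2 scale (SE 0.08, edgeR adjusted p = 0.00657). Nr1h3, which encodes LXR alpha, had 1.96, 2.88 and 3.65 CPM with both compounds against 0.833, 0.989 and 3.41 CPM in Control and did not pass.

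A promoter pattern links some of these genes. LXR and RXR bind repeated half-sites spaced by 4 bases, and the pattern TGACCG, any 4 bases, TAACC, spelled out from the elements known in Srebf1 and Abca1, was searched on both strands in RefSeq promoter windows of GRCm38.p6 that run from 250 bases before to 50 after the transcription start. It was present in 4 of 32851 windows (0.0122%), those of Abca1, Srebf1, Fasn and Prrg4. The windows are shown because they hold the pattern, in capitals, and because all 4 genes rose.
Abca1 promoter, chr4:53159846-53160145, minus strand: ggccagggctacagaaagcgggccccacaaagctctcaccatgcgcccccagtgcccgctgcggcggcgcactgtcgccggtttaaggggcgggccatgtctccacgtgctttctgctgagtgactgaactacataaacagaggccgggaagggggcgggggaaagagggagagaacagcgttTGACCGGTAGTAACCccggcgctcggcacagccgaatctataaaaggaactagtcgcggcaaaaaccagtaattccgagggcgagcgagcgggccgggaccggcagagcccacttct
Srebf1 promoter, chr11:60210422-60210721, minus strand: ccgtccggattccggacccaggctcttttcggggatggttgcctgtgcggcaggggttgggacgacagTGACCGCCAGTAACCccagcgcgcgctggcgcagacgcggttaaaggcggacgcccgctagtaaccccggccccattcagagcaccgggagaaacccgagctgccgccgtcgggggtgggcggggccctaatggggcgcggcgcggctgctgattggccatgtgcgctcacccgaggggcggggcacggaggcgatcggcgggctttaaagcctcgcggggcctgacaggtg
Fasn promoter, chr11:120824498-120824797, minus strand: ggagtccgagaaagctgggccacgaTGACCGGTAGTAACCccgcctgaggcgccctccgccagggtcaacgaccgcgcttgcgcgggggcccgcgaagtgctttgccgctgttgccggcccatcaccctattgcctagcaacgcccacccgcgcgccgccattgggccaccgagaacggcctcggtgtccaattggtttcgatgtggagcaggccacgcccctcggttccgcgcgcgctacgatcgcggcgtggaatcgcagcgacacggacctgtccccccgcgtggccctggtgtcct
Prrg4 promoter, chr2:104849801-104850100, minus strand: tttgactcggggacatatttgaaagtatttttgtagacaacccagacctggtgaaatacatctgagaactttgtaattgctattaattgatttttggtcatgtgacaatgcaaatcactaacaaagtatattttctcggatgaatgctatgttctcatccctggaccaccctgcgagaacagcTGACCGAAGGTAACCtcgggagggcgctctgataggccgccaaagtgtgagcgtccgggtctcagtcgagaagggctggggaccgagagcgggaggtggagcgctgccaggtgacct
The element reads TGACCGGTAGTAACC in Abca1 and in Fasn, TGACCGCCAGTAACC in Srebf1 and TGACCGAAGGTAACC in Prrg4. Its first base lies 67 bases before the start in Abca1, 182 in Srebf1, 225 in Fasn and 67 in Prrg4. Prrg4, which encodes a membrane protein with a vitamin K-dependent Gla domain, was looked at after the search and its values were known when it was chosen. It had 7.38, 3.86 and 9.34 CPM with both compounds and 4.35, 3.02 and 4.44 CPM in Control (0.73 ± 0.20, edgeR adjusted p = 0.0278). Its GW3965+CT99021 replicate 2 lay below Control replicates 1 and 3, and the call was lost without replicate 1 or 3 of either group. A match describes letters in a window and does not show binding, and 2 of the 4 genes served to spell the pattern.

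Many fatty acid synthesis genes rose with both compounds. Of 23 tested genes, Srebf1 included, 13 rose and 1 fell, with a median log2 fold change of 0.34, beside 11.3% and 8.95% of all genes. The median against Control was 0.25 with CT99021 alone and 0.11 with GW3965 alone. With CT99021 alone 9 members were called higher and 1 lower, beside 15.8% of all genes called in either direction. Whether the increases depended on Srebf1 was not tested. Scd1, a desaturase that makes monounsaturated fatty acids, had 196, 263 and 249 CPM in GW3965+CT99021 libraries and 90.8, 95.1 and 104 CPM in Control libraries (1.28 ± 0.10, 2.43-fold, edgeR adjusted p = 7.55e-05). Scd2, its more abundant paralog in counts, had 2709, 3129 and 2389 CPM with both compounds against 1289, 1499 and 1029 CPM in Control. Neither gene overlapped between the groups. Fasn, fatty acid synthase, had 975, 1166 and 712 CPM with both compounds against 526, 527 and 409.9 CPM in Control (0.94 ± 0.11, edgeR adjusted p = 0.000692).

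The increases reached several steps of lipid assembly. Acaca, which makes malonyl-CoA, the building block of fatty acids, had 166, 184 and 138 CPM with both compounds against 111, 109 and 82.6 CPM in Control, and Elovl1, an elongase of very long chains, 31.2, 25.7 and 32.7 CPM with both compounds against 17.8, 15.2 and 19.3 CPM in Control. Both were without overlap, with log2 fold changes of 0.69 ± 0.08 and 0.77 ± 0.12 (edgeR adjusted p = 0.000896 and 0.00275). Acsl3, which activates fatty acids with coenzyme A, rose by 0.58 ± 0.10 and Fads1, a desaturase of polyunsaturated fatty acids, by 0.36 ± 0.07, the Fads1 call being lost without Control replicate 2. Dgat2, the last enzyme of triglyceride synthesis, rose by 0.63 ± 0.17 and Pnpla3, a protein of lipid droplets, by 1.02 ± 0.25. Dgat2 was lost without any 1 Control library or GW3965+CT99021 replicate 1 or 3, and Pnpla3 without Control replicate 1 or 2 or GW3965+CT99021 replicate 2. Lpin1, which produces the diacylglycerol used for triglycerides, went the other way and had 9.29, 13.8 and 23.0 CPM with both compounds against 29.4, 31.1 and 38.6 CPM in Control, without overlap (-1.18 ± 0.18, edgeR adjusted p = 0.00243). Acly, Elovl6 and Fads2, with log2 fold changes of 0.12, 0.18 and 0.17, did not pass. The count of 13 was 8 without Control replicate 2 and between 8 and 14 over all single omissions.

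Most cholesterol synthesis genes did not pass. Of 18 tested genes Lss and Cyp51, enzymes of the late sterol steps, rose and 0 fell (1 without GW3965 replicate 3), and the median was -0.02, beside 11.3% of all genes higher and 8.95% lower. Lss had 74.1, 125 and 69.0 CPM with both compounds against 53.2, 54.6 and 59.7 CPM in Control (0.64 ± 0.18, edgeR adjusted p = 0.0298) and lost its call when Control replicate 1 or 2 or GW3965+CT99021 replicate 2, its highest library, was left out. Cyp51 (0.35 ± 0.10) passed in 4 of 12 fits that left out a library, and the number that rose ran between 0 and 6, the 6 without Control replicate 3. The median log2 ratio of the list was 0.18, 0.36 and -0.39 in pairs 1, 2 and 3, so the third pair ran opposite to the other two. Npc2, which carries cholesterol inside lysosomes, and Lrp8, a receptor of reelin and apolipoprotein E, rose by 0.30 ± 0.06 and 0.26 ± 0.08 among 10 genes of sterol sensing and uptake. That count of 2 was 0 without Control replicate 1 and 1 without any 1 of the other libraries compared or GW3965 replicate 1 or 2.

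**Figure D2:**
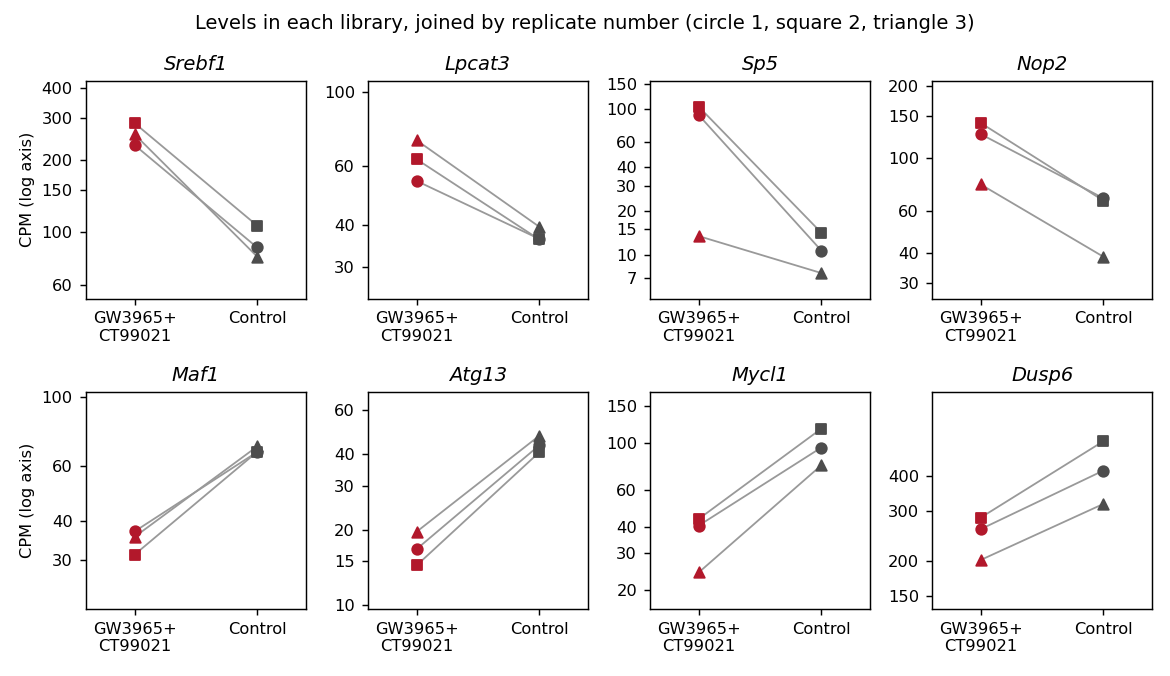
CPM (log axis) of 8 genes in the 3 GW3965+CT99021 libraries (left, red) and the 3 Control libraries (right, grey), with lines joining libraries of 1 replicate number. Srebf1, Lpcat3, Sp5 and Nop2 are higher and Maf1, Atg13, Mycl1 and Dusp6 lower with both compounds in every pair, and in Sp5 the third pair, at 13.5 CPM with both compounds against 7.53 CPM in Control, is the closest.

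Which part of this response goes beyond a single compound was asked by setting the GW3965+CT99021 libraries against each. Against CT99021 alone, 3 genes were past the test (0.0192% of 15608, with 1016 or 6.51% at an unadjusted p under 0.05), and all 3 were higher with both compounds, a group difference without overlap in 1.66% of all genes. Abca1 differed by 2.26 ± 0.18 log2 units (edgeR adjusted p = 0.00131), Abcg1 by 1.98 ± 0.25 (edgeR adjusted p = 0.0496) and Srebf1 by 1.10 ± 0.09 (edgeR adjusted p = 0.00131). In the 6 libraries of these groups alone edgeR called 0 genes, with 558 at an unadjusted p under 0.05. Against GW3965 alone, 3216 genes were past the test (20.6%), 1841 higher (11.8%) and 1375 lower (8.81%), so that 57.2% of the calls were higher, a share that was 44% with library totals in place of the composition correction. The number was 1394 and 1484 without GW3965 replicates 1 and 2, 2077 and 1625 without GW3965+CT99021 replicates 1 and 2. The libraries lay wholly above those of GW3965 in 8.18% of genes and wholly below in 7.2%. The 2 comparisons share the GW3965+CT99021 libraries.

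The lipid genes showed different orders over the 4 groups. Srebf1 averaged 258 CPM with both compounds, 121 with CT99021, 238 with GW3965 and 90.4 in Control, and the value with both lay within the spread of GW3965 alone (difference 0.12 ± 0.09, edgeR adjusted p = 0.369). Abcg1 averaged 26.1 CPM with both compounds, 6.56 with CT99021, 52.2 with GW3965 and 14.2 in Control. It was lower with both compounds than with GW3965 alone, by -1.02 ± 0.22 (edgeR adjusted p = 0.0106), and the 3 libraries of each group did not overlap. Scd1 averaged 236 CPM with both compounds, against 159.7 CPM with CT99021 and 153 CPM with GW3965, with no overlap against either. Only the difference from GW3965 passed for Scd1 (0.63 ± 0.10, edgeR adjusted p = 0.00242), and that from CT99021 did not (0.55 ± 0.10, edgeR adjusted p = 0.352). Lpcat3 had the same order of means, 63.0 CPM with both compounds, 49.7 with CT99021, 49.3 with GW3965 and 37.5 in Control. Its difference from CT99021 did not pass either.

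Whether the 2 compounds together differ from the sum of their separate effects on the log2 scale was tested for every gene. By edgeR 0 of 15608 genes passed, with 522 (3.34%) at an unadjusted p under 0.05, and DESeq2 and limma-voom also called 0 (430 and 551 unadjusted). The difference from the sum was -0.30 ± 0.12 log2 units for Srebf1, 0.37 ± 0.24 for Abca1, 0.06 ± 0.33 for Abcg1, -0.10 ± 0.14 for Scd1 and -0.07 ± 0.15 for Fasn. The standard error combines 4 groups of 3 libraries and reached 0.33 for Abcg1.

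**Figure D3:**
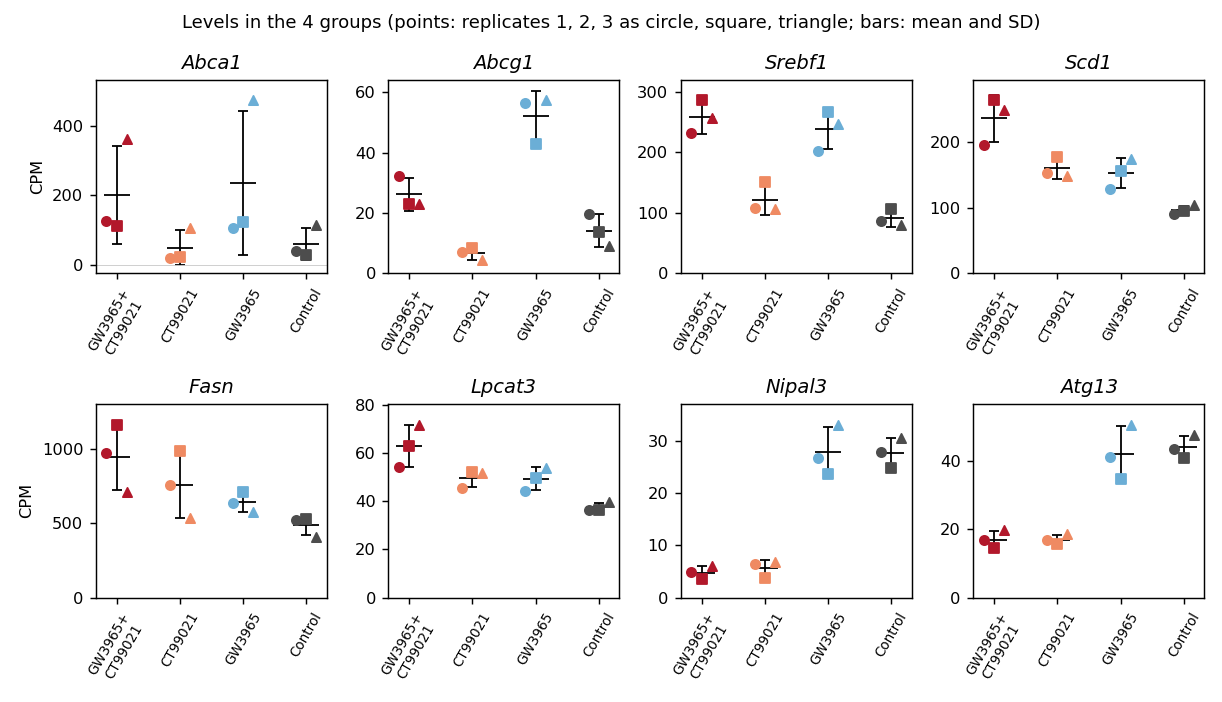
CPM of 8 genes in each of the 3 libraries of the GW3965+CT99021, CT99021, GW3965 and Control groups (points by replicate number), with the mean and SD as bars. Abcg1 with both compounds lies between GW3965 and Control, and Nipal3 and Atg13 are low in both groups that received CT99021. Scd1 and Lpcat3 have their highest mean with both compounds, though neither difference from CT99021 passed the test.

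Several genes of the Wnt pathway rose by more than a doubling. Of 11 genes of negative feedback on the pathway 6 rose and 0 fell, beside 11.3% and 8.95% of all genes, with a median log2 fold change of 1.04, and 6 to 9 rose in the fits that left out a library. With CT99021 alone against Control 8 were called higher and 0 lower (median 1.32), beside 15.8% of all genes called in either direction. Notum, which encodes a secreted enzyme that inactivates Wnt proteins (chromosome 11, position 120515102), had 54.2, 110.5 and 8.32 CPM with both compounds against 8.43, 16.9 and 2.22 CPM in Control. Levels in the libraries numbered 3 were low in both groups, so the ranges overlap although the library with both compounds was several times higher in each pair (2.55 ± 0.16, edgeR adjusted p = 3.76e-05). Nkd2, an inhibitor of Dishevelled, had 28.9, 22.9 and 49.4 CPM with both compounds against 10.97, 4.65 and 16.7 CPM in Control (1.75 ± 0.20, edgeR adjusted p = 0.0007), and Znrf3, a ubiquitin ligase that removes Frizzled receptors, 90.5, 109.5 and 61.9 CPM with both compounds against 54.3, 71.3 and 44.6 CPM in Control (0.61 ± 0.07, edgeR adjusted p = 0.00105). Dkk4, a secreted inhibitor, had 56 counts over the 3 treated libraries and 1 over the 3 controls, a ratio of depth-corrected levels of 67.5 with an exact interval of 11.6 to 2720 that covers counting error only. Dkk1, Rnf43 and Wif1, with log2 fold changes of 0.91, 1.04 and 0.80, did not pass. Without the 4 libraries numbered 3 they passed, at 1.49, 1.17 and 1.06 (edgeR adjusted p = 0.00555, 0.00492 and 0.000924).

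Transcription factors of the pathway changed in different directions. Of 10 Wnt target genes of transcription and growth, Sp5, Lef1, Tcf7 and Tnfrsf19 rose and Myc fell. Of all genes 11.3% rose and 8.95% fell. Sp5, a Wnt-induced factor (chromosome 2, position 70312879), had 91.3, 104 and 13.5 CPM in GW3965+CT99021 libraries and 10.7, 14.2 and 7.53 CPM in Control libraries (2.43 ± 0.37, edgeR adjusted p = 0.00276). The increase was large in pairs 1 and 2 and small in pair 3. Tcf7, which encodes a partner of beta-catenin, had 47.5, 51.6 and 23.8 CPM with both compounds against 17.0, 17.3 and 10.7 CPM in Control, without overlap (1.42 ± 0.10, edgeR adjusted p = 4.85e-05), and Lef1 rose by 1.61 ± 0.19. Its relatives Tcf7l2 and Tcf7l1, which can repress targets, fell by 0.61 and 0.57 (SE 0.10 and 0.11, edgeR adjusted p = 0.00365 and 0.00743), and the corepressor Tle4 by 0.51. Of 12 genes of beta-catenin and its nuclear partners 5 fell and 1 rose, the corepressor gene Tle1 (0.56 ± 0.15, lost without replicate 1 or 2 of either group and joined by 1 more without replicate 3 of either), while Ctnnb1, beta-catenin itself, had 1201, 1241 and 1078 CPM with both compounds against 1184, 1267 and 1122 CPM in Control (-0.02 ± 0.07, edgeR adjusted p = 0.851). Myc, known in other tissues as a Wnt target, had 46.7, 35.3 and 40.8 CPM with both compounds against 73.5, 62.0 and 39.6 CPM in Control (-0.47 ± 0.15, edgeR adjusted p = 0.0459) and passed in 5 of 12 fits that left out a library. Ccnd1, a cyclin often listed with it, did not pass (0.30 ± 0.13). The Sp5 window is shown for its TCF/LEF motif CTTTGAT, in capitals, which 3.73% of all windows held on either strand.
Sp5 promoter, chr2:70474673-70474972, plus strand: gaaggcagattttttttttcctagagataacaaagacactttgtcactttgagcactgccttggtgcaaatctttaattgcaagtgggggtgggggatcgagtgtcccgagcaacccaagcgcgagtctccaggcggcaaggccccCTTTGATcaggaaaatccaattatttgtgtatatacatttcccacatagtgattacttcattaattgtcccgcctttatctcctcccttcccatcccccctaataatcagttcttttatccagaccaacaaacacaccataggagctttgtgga

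Among genes of the complex that holds GSK3, the largest changes were those of its binding partners Frat1 and Frat2. Gsk3b had 370.2, 377 and 293 CPM with both compounds against 348, 323 and 324 CPM in Control (0.06 ± 0.08) and Gsk3a did not pass either. Frat1, whose protein competes with Axin for GSK3, had 0.318, 0.303 and 1.61 CPM with both compounds against 6.53, 6.67 and 6.74 CPM in Control and showed one of the largest decreases of the data (-3.29 ± 0.46, edgeR adjusted p = 0.00173). Frat2 had 1.38, 2.35 and 5.605 CPM with both compounds against 5.97, 6.28 and 13.4 CPM in Control, likewise without overlap (-1.56 ± 0.24, edgeR adjusted p = 0.00284). The 2 genes neighbour each other on chromosome 19, share part of their sequence, and the treatment of reads that fit both is not stated, so their separate values are uncertain. Of 15 genes of the destruction complex and its regulators, Axin1, a scaffold, rose by 0.47 ± 0.09 (edgeR adjusted p = 0.0063), and Frat1, Frat2 and Btrc, which encodes a ubiquitin ligase subunit that recognises beta-catenin, fell. Of all genes 11.3% rose and 8.95% fell, and the number that rose here is not above that share. Btrc (-0.27 ± 0.06) lost its call without Control replicate 1 or 3 or GW3965+CT99021 replicate 2.

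Both Frat windows are shown because they hold the FoxO motif GTAAACA, here as its reverse complement TGTTTAC in capitals, within a stretch of 63 bases that is the same in both. The motif was present in 3.65% of all windows on either strand.
Frat1 promoter, chr19:41829720-41830019, plus strand: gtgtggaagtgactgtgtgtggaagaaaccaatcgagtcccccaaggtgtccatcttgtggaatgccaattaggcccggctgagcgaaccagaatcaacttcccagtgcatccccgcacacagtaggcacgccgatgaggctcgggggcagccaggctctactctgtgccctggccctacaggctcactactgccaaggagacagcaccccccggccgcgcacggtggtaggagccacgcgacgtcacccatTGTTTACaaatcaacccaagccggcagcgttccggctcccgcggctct
Frat2 promoter, chr19:41848083-41848382, minus strand: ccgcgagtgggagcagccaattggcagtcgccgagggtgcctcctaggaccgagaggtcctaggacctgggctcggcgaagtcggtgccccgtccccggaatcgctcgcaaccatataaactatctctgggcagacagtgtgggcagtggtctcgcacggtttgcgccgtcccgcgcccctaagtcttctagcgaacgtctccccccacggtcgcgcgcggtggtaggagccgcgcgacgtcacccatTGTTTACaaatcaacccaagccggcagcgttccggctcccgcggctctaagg
The motif begins 2 bases before the start in Frat2 and at the base numbered 3 of the transcript in Frat1.

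Wnt ligands fell where they changed. Of 16 tested ligands 0 rose (1 without Control replicate 3) and 4 fell, beside 11.3% and 8.95% of all genes, with a median of -0.42, and 3 more were below the filter. Wnt3a had 0.796, 0.606 and 0.679 CPM with both compounds against 5.09, 3.86 and 1.19 CPM in Control (-2.20 ± 0.34, edgeR adjusted p = 0.00263), and Wnt7a 5.94, 3.18 and 2.97 CPM with both compounds against 11.7, 8.85 and 8.33 CPM in Control (-1.26 ± 0.21, edgeR adjusted p = 0.00367). Neither overlapped. Wnt1, the ligand of the midbrain border, fell as well, and the call of Wnt3 (-0.68 ± 0.18) was lost without any 1 of the 6 libraries compared. Of 23 receptors and secreted modulators, Fzd10, Ror2, Ror1, Fzd6 and Ryk rose and Rspo2, a secreted enhancer of Wnt signalling, fell. Fzd10, a Frizzled receptor, had 142, 219.8 and 32.1 CPM with both compounds against 33.8, 45.0 and 19.6 CPM in Control (1.75 ± 0.24, edgeR adjusted p = 0.0016), and Ror2, a receptor for Wnt5a, rose by 1.37 ± 0.24. These 2 kept their call in all single omissions, whereas the count of 5 was 2 without Control replicate 1 or 2 or GW3965+CT99021 replicate 2 and 3 without GW3965+CT99021 replicate 1, and Rspo2 was lost without Control replicate 2, while 2 genes fell without CT99021 replicate 3.

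**Figure D4:**
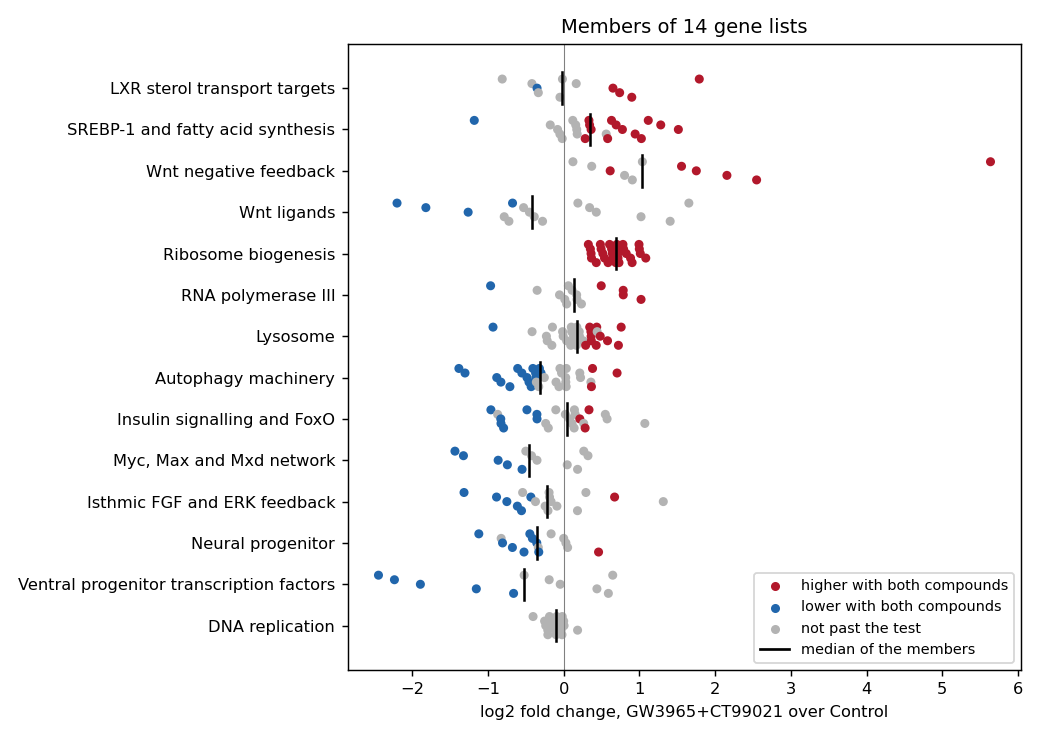
Log2 fold change of GW3965+CT99021 over Control for every tested member of 14 gene lists, coloured by the edgeR call, with a bar at each list's median. All 29 ribosome biogenesis genes lie above 0 as calls, 15 of 32 autophagy genes are calls below 0, and 0 of 19 DNA replication genes are calls.

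All 29 tested ribosome biogenesis genes rose, with a median log2 fold change of 0.69, beside 11.3% of all genes, and 27 to 29 stayed past the test with any 1 library left out. All 29 were also called higher with CT99021 alone against Control (median 0.59), beside 15.8% of all genes called in either direction. With GW3965 alone the median was 0.07. Gnl3, a nucleolar GTPase of stem cells known as nucleostemin, had 116, 143 and 116 CPM with both compounds and 66.96, 70.4 and 41.3 CPM in Control (1.08 ± 0.16, edgeR adjusted p = 0.00216). Nop2, a methyltransferase of ribosomal RNA (chromosome 6, position 125081800), had 126, 141 and 77.6 CPM with both compounds against 68.0, 66.4 and 38.6 CPM in Control (0.99 ± 0.12, edgeR adjusted p = 0.000896), and Tsr1, which matures the small subunit, 157, 168 and 112 CPM with both compounds against 89.2, 80.8 and 63.2 CPM in Control (0.90 ± 0.09, edgeR adjusted p = 0.000394). None of the 3 overlapped, and in Nop2 and Tsr1 both libraries numbered 3 were the lowest of their group. The smallest rise was that of Fbl, the methyltransferase fibrillarin, at 0.32 ± 0.06. The increase covered the machinery of several steps, from Polr1a, the large subunit of RNA polymerase I (0.71 ± 0.06), and Polr1b (0.60 ± 0.08) to the processing factors Rrp9 (1.01 ± 0.13) and Rrp12 (0.998 ± 0.14) and the abundant nucleolar proteins Npm1 (0.54 ± 0.06) and Ncl (0.48 ± 0.07).

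RNA polymerase III, which makes transfer RNA and the smallest ribosomal RNA, changed in parts. Of 14 genes Polr3g, Polr3d, Polr3e and Polr3a rose and Maf1, the repressor of the enzyme, fell. Of all genes 11.3% rose and 8.95% fell, and the number that fell here is near that share. Maf1 (chromosome 15, position 76181623) had 37.0, 31.2 and 35.6 CPM with both compounds against 66.8, 66.8 and 69.5 CPM in Control, a tight separation (-0.97 ± 0.09, edgeR adjusted p = 0.000199). Polr3g, a subunit found in stem cells, had 13.9, 22.1 and 12.5 CPM with both compounds against 7.64, 9.15 and 6.66 CPM in Control (1.02 ± 0.12, edgeR adjusted p = 0.000915) and Polr3d rose by 0.79 ± 0.13. The count of 4 was 2 without Control replicate 2 or GW3965+CT99021 replicate 2. Of 20 cytosolic aminoacyl-tRNA synthetases, which charge transfer RNA, 6 rose and 0 fell, beside the same shares of all genes. The count of 6 was 11 without CT99021 replicate 3 and 13 without GW3965 replicate 3. Rars, the arginine enzyme, had 137, 142 and 122 CPM with both compounds against 92.0, 94.2 and 68.0 CPM in Control (0.67 ± 0.10, edgeR adjusted p = 0.0025).

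In the Myc network several genes that oppose Myc fell, and so did the Myc paralog Mycl1. Of 12 members 0 rose (1 without CT99021 replicate 3 or GW3965 replicate 3) and 5 fell (8.95% of all genes did), with a median of -0.46 and 5 or 6 falling in each single omission. Mxd4, Mnt, Mxi1 and Mxd1 encode repressors that bind Max in place of Myc. Mxi1 had 36.9, 38.7 and 54.7 CPM with both compounds against 60.8, 67.6 and 89.4 CPM in Control (-0.75 ± 0.07, edgeR adjusted p = 0.000289), Mxd4 9.93, 7.80 and 15.5 CPM with both compounds against 23.5, 20.3 and 40.3 CPM in Control (-1.33 ± 0.19, edgeR adjusted p = 0.00211), and Mnt 35.0, 24.005 and 39.1 CPM with both compounds against 62.1, 53.9 and 60.03 CPM in Control (-0.87 ± 0.11, edgeR adjusted p = 0.00139). The fifth was Mycl1, a paralog of Myc, with 40.5, 43.5 and 24.2 CPM with both compounds against 95.3, 117 and 78.5 CPM in Control (-1.44 ± 0.14, edgeR adjusted p = 0.000289). Mycn, a further paralog, and Max had log2 fold changes of -0.43 ± 0.14 and 0.32 ± 0.11 and did not pass (edgeR adjusted p = 0.052 and 0.0573). Myc itself, counted above with the Wnt target genes, fell by 0.475 but passed in only 5 of 12 fits that left out a library. Against Control, CT99021 alone also gave 5 members called lower and 0 higher, with a median of -0.29, beside 15.8% of all genes called in either direction.

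Autophagy genes mostly fell or did not pass. Of 32 tested, 15 fell and 3 rose, with a median of -0.31, beside 8.95% and 11.3% of all genes, and 11 to 16 fell in single omissions. CT99021 alone against Control gave 12 called lower and 1 higher (median -0.23), beside 15.8% of all genes called in either direction. Atg13, a scaffold of the kinase complex that starts autophagy (chromosome 2, position 91514768), had 16.7, 14.4 and 19.6 CPM in GW3965+CT99021 libraries and 43.5, 40.8 and 47.5 CPM in Control libraries (-1.39 ± 0.09, edgeR adjusted p = 3.76e-05). Ulk1, the kinase of that complex, had 77.9, 80.6 and 75.0 CPM with both compounds against 126, 123.2 and 134 CPM in Control (-0.71 ± 0.07, edgeR adjusted p = 0.000376), and its relative Ulk2 fell by 0.61 (SE 0.08). The replicates of each group were close and the groups far apart in all 3. Wdr45, a phosphoinositide-binding protein of the growing membrane, had 6.32, 7.88 and 9.17 CPM with both compounds against 15.4, 16.1 and 27.8 CPM in Control (-1.31 ± 0.16, edgeR adjusted p = 0.000915), and Nbr1, a cargo receptor, 94.5, 89.0 and 125 CPM with both compounds against 168, 171 and 206 CPM in Control (-0.83 ± 0.06, edgeR adjusted p = 7.07e-05). Gabarapl1 and Map1lc3b, ubiquitin-like proteins of the membrane, fell by 0.55 and 0.37, the Map1lc3b call being lost without Control replicate 3. Sqstm1, a cargo receptor, did not pass and had no stable sign (0.03 ± 0.12), nor did Becn1, Atg5 and Atg7. The 3 that rose were Optn, Atg16l1 and Atg3, and 0 or 1 of them passed without any 1 of the 6 libraries compared.

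Lysosome genes gave more increases than decreases, in numbers that depended on single libraries. Of 31 tested, 11 rose, 1 fell and 19 did not pass, with a median of 0.17, beside 11.3% and 8.95% of all genes, and 4 to 6 rose without any 1 of the 6 libraries compared. Lamp1, an abundant protein of the lysosomal membrane, had 458, 408 and 514 CPM with both compounds against 339.9, 312 and 431 CPM in Control (0.36 ± 0.07, edgeR adjusted p = 0.00739), and Lamp2 rose by 0.43 ± 0.08. Hexa, a hexosaminidase, had 49.5, 38.02 and 120.2 CPM with both compounds against 36.9, 29.5 and 76.0 CPM in Control, higher in each pair by 0.48 ± 0.10 (edgeR adjusted p = 0.00896). Flcn and Fnip1, which encode partners in a regulator of nutrient signalling at the lysosome, rose by 0.58 ± 0.16 and 0.76 ± 0.21, calls that were lost without any 1 of the 6 libraries. Ctsf, cathepsin F, was the member that fell, with 9.02, 9.01 and 18.9 CPM with both compounds against 18.2, 16.4 and 35.9 CPM in Control (-0.94 ± 0.11, edgeR adjusted p = 0.000915). Tfeb, a transcription factor of lysosome genes, did not pass (-0.22 ± 0.20).

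Several genes of insulin signalling that FoxO factors are known to activate fell. Of 24 genes 7 fell and 3 rose, with a median of 0.05, beside 8.95% and 11.3% of all genes, and the number that rose is near that share. CT99021 alone against Control gave 8 called lower and 3 higher (median 0.06), beside 15.8% of all genes called in either direction. Irs2, an adaptor of the insulin receptor, had 56.3, 56.9 and 51.6 CPM with both compounds against 100.2, 136 and 91.0 CPM in Control (-0.96 ± 0.10, edgeR adjusted p = 0.000435). Igf1r, the receptor of insulin-like growth factor, had 155, 167 and 218 CPM with both compounds against 265, 282 and 394 CPM in Control (-0.80 ± 0.08, edgeR adjusted p = 0.000376), and Foxo4 17.4, 19.5 and 23.8 CPM with both compounds against 30.8, 34.6 and 42.7 CPM in Control (-0.83 ± 0.12, edgeR adjusted p = 0.00213). None of the 3 overlapped. Pik3ip1, an inhibitor of phosphoinositide kinase, fell by 0.83 (SE 0.16, edgeR adjusted p = 0.00671). The count of 7 was 4 without Control replicate 1 or GW3965+CT99021 replicate 2. The 3 that rose, Akt2, Rptor and Tsc2, were lost together without Control replicate 1 or 2 or GW3965+CT99021 replicate 1 or 2, 1 was left without CT99021 replicate 2 or GW3965 replicate 1, and 5 genes rose without CT99021 replicate 3 or GW3965 replicate 3.

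Calls were also counted among genes grouped by a motif in the promoter window, available for 11892 of the 15608 tested genes (76.2%). Of these, 11.4% rose and 8.94% fell. Genes with the E-box CACGTG, the site of Myc, Max, Mxd and related factors, rose in 19.5% and fell in 7.29% of 1330 cases. Genes with the FoxO motif GTAAACA rose in 6.2% and fell in 19.4% of 371 cases, with a median log2 fold change of -0.13. With the TCF/LEF motif CTTTGAT the shares were 10.1% and 7.67% of 365 genes, with its second form CTTTGAA 12.1% and 7.24% of 539, and with the lysosomal CLEAR element TCACGTGA, which contains the E-box, 16.8% and 8.82% of 238. Within 4 bins of the windows by rising GC content, E-box genes rose in 13.7%, 20.8%, 21.4% and 20.4%, against 8.33%, 11.1%, 14% and 12.4% of all genes, and FoxO-motif genes fell in 11.2%, 19.4%, 27.7% and 34.8%, against 8.69%, 8.72%, 9.43% and 8.95% of all genes. The FoxO-motif genes numbered 152, 108, 65 and 46 in these bins, of which 17, 21, 18 and 16 fell, so the highest shares rest on the fewest genes. Some lists used here overlap the motif groups, since 8 of 26 ribosome biogenesis windows (30.8%) and 13 of 27 lysosome windows (48.1%) held an E-box, against 11.2% of the windows of tested genes and 7.15% of all windows. Of 26 autophagy windows 4 (15.4%) held an E-box and 0 the FoxO motif, which 3.12% of tested genes held. The insulin signalling list was not counted by motif. The Nop2 window is shown with its E-box in capitals, 60 bases before the start.
Nop2 promoter, chr6:125131633-125131932, plus strand: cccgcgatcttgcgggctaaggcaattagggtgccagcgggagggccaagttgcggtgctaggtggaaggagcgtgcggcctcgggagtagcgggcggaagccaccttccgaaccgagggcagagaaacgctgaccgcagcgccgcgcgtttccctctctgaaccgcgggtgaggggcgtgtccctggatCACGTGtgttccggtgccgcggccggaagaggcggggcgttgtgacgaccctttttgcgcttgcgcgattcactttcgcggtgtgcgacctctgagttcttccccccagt
A motif describes letters only, the motifs are short, and whether any factor bound there was not tested.

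**Figure D5:**
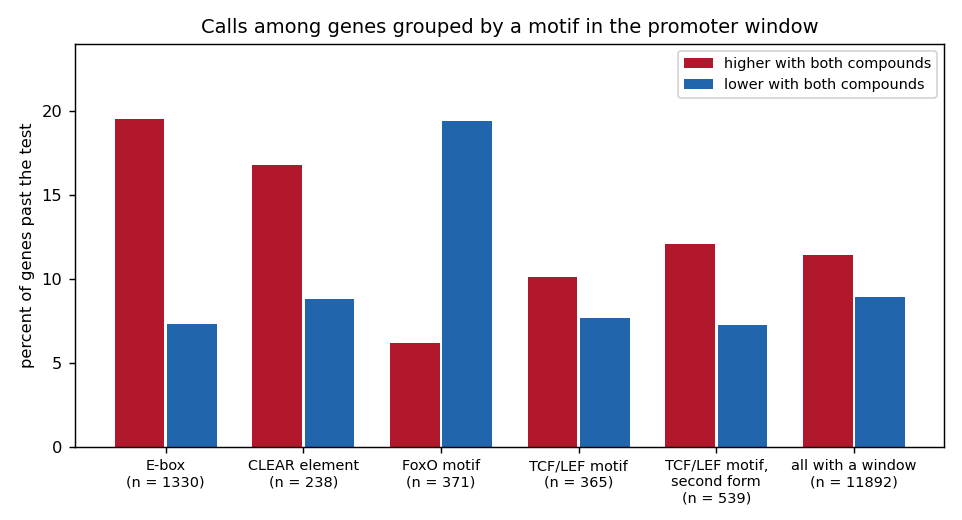
Percent of tested genes called higher (red) and lower (blue) in GW3965+CT99021 against Control, for genes whose promoter window holds each motif and, at the right, for all tested genes with a window. E-box genes rose in 19.5% against 11.4% of all, and FoxO-motif genes fell in 19.4% against 8.94% of all.

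Some genes of FGF and ERK signalling fell, among them the feedback genes Dusp6 and Spry1. Of 18 genes of the isthmic FGF system 6 fell, 1 rose and 11 did not pass, beside 8.95% and 11.3% of all genes, with 5 to 8 falling in single omissions. Dusp6, a phosphatase of ERK, had 259, 285 and 201 CPM with both compounds against 419, 533 and 319 CPM in Control, without overlap (-0.75 ± 0.07, edgeR adjusted p = 0.000289). Etv5, a transcription factor induced by FGF, had 144, 140.5 and 152 CPM with both compounds against 222, 219 and 201 CPM in Control (-0.56 ± 0.06, edgeR adjusted p = 0.000692), and Spry1, an inhibitor of receptor signalling, fell by 0.61 (SE 0.07). The receptor Fgfr1 fell by 0.44 (SE 0.08), and Gbx2, a factor of the territory behind the midbrain, had 13.7, 9.69 and 1.44 CPM with both compounds against 26.5, 25.1 and 6.11 CPM in Control (-1.32 ± 0.19, edgeR adjusted p = 0.00213). The 1 that rose was Fgf17, a ligand (0.67 ± 0.20), whose call was lost without any 1 of the Control libraries, GW3965+CT99021 replicate 1 or 3, CT99021 replicate 2 or GW3965 replicate 2, whereas 2 genes rose without CT99021 replicate 3 or GW3965+CT99021 replicate 2.

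Some progenitor factors and some dopaminergic genes fell, and most dopaminergic genes, like most of all genes, did not pass. Of 15 neural progenitor genes 8 fell, 6 did not pass and 1 rose (Slc1a3, a glutamate transporter, past the test in 3 of 12 single omissions), with a median of -0.36, beside 8.95% of all genes lower and 11.3% higher, and 3 and 5 fell without Control replicates 2 and 3. Sox3 had 5.998, 6.44 and 3.57 CPM with both compounds against 10.8, 12.9 and 10.9 CPM in Control (-1.12 ± 0.17, edgeR adjusted p = 0.00244), and Sox1 63.7, 80.0 and 25.7 CPM with both compounds against 100.3, 153 and 46.7 CPM in Control (-0.81 ± 0.09, edgeR adjusted p = 0.000617). Both encode transcription factors that keep neural cells undifferentiated. Of 11 ventral progenitor factors 5 fell, 6 did not pass and 0 rose, or 3 fell without Control replicate 2. Nkx2-2, a factor of ventral interneuron and glial domains, had 5.89, 5.30 and 5.35 CPM with both compounds against 12.2, 11.97 and 12.8 CPM in Control (-1.16 ± 0.15, edgeR adjusted p = 0.0014), with close replicates in both groups. Of 15 floor plate and dopaminergic progenitor genes 2 fell and 0 rose, or 1 fell without Control replicate 1 or 3 or GW3965+CT99021 replicate 3 and 5 without GW3965 replicate 3, and Lmx1b, a factor of dopaminergic progenitors, had 9.24, 11.6 and 13.7 CPM with both compounds against 17.2, 18.8 and 20.3 CPM in Control (-0.72 ± 0.11, edgeR adjusted p = 0.0025). Lmx1a and Foxa2 did not pass (-0.03 ± 0.20 and -0.38 ± 0.13), nor did Nr4a2 (-0.08 ± 0.17), and neither Lmx1a nor Nr4a2 had a stable sign. Of 10 dopaminergic neuron genes Ddc and Ret fell and 0 rose, a count of 2 that was 0 without Control replicate 1 or 3 or GW3965+CT99021 replicate 2 or 3 and 1 without Control replicate 2. The list median was -0.52 for ventral progenitor factors, -0.23 for floor plate and dopaminergic progenitor genes and -0.385 for dopaminergic neuron genes. Th, the enzyme that limits dopamine synthesis, had 0.902, 0.303 and 0.594 CPM with both compounds against 1.57, 0.692 and 1.43 CPM in Control (-1.002 ± 0.34, edgeR adjusted p = 0.0608).

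Neurogenic factors split. Neurog2, a proneural factor of dopaminergic neurogenesis, had 9.71, 30.6 and 4.59 CPM with both compounds against 3.66, 5.04 and 2.46 CPM in Control (1.76 ± 0.28, edgeR adjusted p = 0.00307), with a larger rise in pair 2. Ebf3, which acts in the onset of neuronal differentiation, fell by 0.61 (SE 0.08, edgeR adjusted p = 0.00142). Of 7 proneural genes 1 rose and 3 fell, beside 11.3% and 8.95% of all genes, or 1 fell without Control replicate 3 or GW3965+CT99021 replicate 2. Of 15 pan-neuronal genes 4 fell and 1 rose. The 4 were 7 without CT99021 replicate 1 or GW3965+CT99021 replicate 1 and 1 without any 1 of the Control libraries or GW3965+CT99021 replicate 2 or 3, and the 1 that rose was lost without Control replicate 1 or 2, while 2 rose without CT99021 replicate 1. Elavl4, an RNA-binding protein of neurons, had 72.3, 44.0 and 68.8 CPM with both compounds against 97.7, 79.3 and 102 CPM in Control (-0.61 ± 0.12, edgeR adjusted p = 0.00754). Lfng, a modifier of Notch receptors, fell by 1.06 (SE 0.21, edgeR adjusted p = 0.00834) among 17 Notch genes of which 4 fell and 0 rose, or 2 without Control replicate 2, CT99021 replicate 2 or GW3965+CT99021 replicate 2 or 3. Tal1 and Gad2, of GABAergic neurons, fell by 0.56 and 0.42 among 13 genes of other midbrain neurons of which 4 fell and 0 rose, or 2 without Control replicate 3.

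Counts of cell cycle, metabolic and stress genes differed between lists, beside 11.3% of all genes higher and 8.95% lower. Of 19 DNA replication genes 0 were past the test in edgeR, DESeq2 or limma-voom, with 0 at an unadjusted p under 0.05 in edgeR, and their median was -0.10 (1 fell without GW3965 replicate 3). Of 18 mitosis genes 3 fell, or 1 without Control replicate 1 or 3 or GW3965+CT99021 replicate 3, 8 without CT99021 replicate 3 and 10 without GW3965 replicate 3. Cenpf, a centromere protein, had 115, 194 and 129 CPM with both compounds against 163, 250.7 and 215 CPM in Control (-0.54 ± 0.08, edgeR adjusted p = 0.00276). Rbl2, a pocket protein of quiescent cells, fell by 0.67 (SE 0.08, edgeR adjusted p = 0.000914). Of 19 glycolysis genes 4 rose and 2 fell, and Hk2, hexokinase, had 68.3, 90.9 and 77.5 CPM with both compounds against 34.4, 54.9 and 25.9 CPM in Control (1.08 ± 0.20, edgeR adjusted p = 0.00551). The 4 were 2, and the 2 were 0 or 1, without replicate 1 or 2 of either group. Of 20 genes of the ATF4 and endoplasmic reticulum stress response 6 rose and 0 fell, or 3 without replicate 3 of either group, and the median log2 ratio was 0.29, 0.28 and 1.54 in pairs 1, 2 and 3. Hspa5, the chaperone BiP, had 828, 720.1 and 1396 CPM with both compounds against 619, 596 and 685 CPM in Control, where the third library with both compounds stood out (0.58 ± 0.14, edgeR adjusted p = 0.0187, lost without replicate 3 of either group or Control replicate 1).

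Genes with the largest changes outside these lists included secreted and membrane proteins. Il6ra, the receptor of interleukin-6, had 25.7, 31.6 and 7.39 CPM with both compounds against 4.54, 5.04 and 1.82 CPM in Control, without overlap (2.43 ± 0.38, edgeR adjusted p = 0.0029). Stra6, a retinol transporter, had 9.77, 6.13 and 3.65 CPM with both compounds against 1.67, 0.692 and 2.14 CPM in Control (2.20 ± 0.39, edgeR adjusted p = 0.00465), and Nov, a matrix-associated signalling protein, 11.2, 7.57 and 15.2 CPM with both compounds against 2.82, 1.53 and 4.68 CPM in Control (1.99 ± 0.34, edgeR adjusted p = 0.00418). Gpr44, a prostaglandin receptor, rose by 1.79 ± 0.30, and Tnfrsf11b, a decoy receptor of the TNF family, by 2.78 ± 0.57, although the call of Tnfrsf11b was lost without Control replicate 1 or 2. All 5 were without overlap. Among the decreases, Nipal3 (chromosome 4, position 135004815) had 4.83, 3.56 and 6.03 CPM with both compounds against 27.9, 24.9 and 30.6 CPM in Control (-2.55 ± 0.14, edgeR adjusted p = 1.67e-05), the lowest adjusted p among the genes named here. Fam100b had 13.2, 10.98 and 12.9 CPM with both compounds against 54.2, 49.6 and 48.4 CPM in Control (-2.04 ± 0.13), and Gm7367, listed at an overlapping position with nearly the same counts, may not be a separate measurement. Ypel4 (-2.05 ± 0.30) and Bmf, a pro-apoptotic protein (-1.88 ± 0.31), fell without overlap.

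In a further set of large changes the replicates disagreed, and markers of mesenchyme moved with them. Cyp1b1, a monooxygenase of steroids and retinoids, had 91.9, 134 and 177 CPM with both compounds against 15.05, 8.60 and 102 CPM in Control (2.61 ± 0.53, edgeR adjusted p = 0.00842, lost without Control replicate 2). Cldn11, a tight junction protein, had 15.3, 11.7 and 25.6 CPM with both compounds against 1.81, 1.38 and 18.0 CPM in Control (2.08 ± 0.42), and Edn3, an endothelin, 4.51, 6.06 and 6.45 CPM with both compounds against 0.833, 0.148 and 5.23 CPM in Control (2.56 ± 0.77), a call that held in 2 of 12 single omissions. In all 3 the control numbered 3 was already high. The 10 mesenchyme and pericyte markers summed to 2291, 958.1 and 3193 CPM with both compounds, to 1613, 356.8 and 3945 CPM with CT99021, to 1218, 253.7 and 2601 CPM with GW3965 and to 1449, 240 and 2981 CPM in Control. Twist1, a mesenchymal transcription factor, had 23.2, 12.8 and 42.5 CPM with both compounds against 10.2, 3.91 and 22.8 CPM in Control (1.24 ± 0.18, edgeR adjusted p = 0.0023). Of the 10 markers 4 rose, beside 11.3% of all genes, or 1 without Control replicate 1 or 2 and 7 without GW3965+CT99021 replicate 3. Meox1, a mesodermal factor, had its highest control in replicate 3, at 19.3 CPM, and fell by 2.87 (SE 0.44). The part of mesenchymal cells in these values was not tested.

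Markers of other cell types were present at varied levels, and their calls stand beside 11.3% of all genes higher and 8.95% lower. The 11 erythroid rows summed to 13080, 20900 and 27680 CPM with both compounds against 17180, 23490 and 44520 CPM in Control, and the globin genes Hbb-y and Hbb-bh1 fell (-0.43 ± 0.13 and -0.50 ± 0.15). That count of 2 was 0 without Control replicate 1 or 3, CT99021 replicate 2 or any 1 of the GW3965+CT99021 libraries and 7 without GW3965 replicate 1 or 3. The 5 tested microglial markers summed to 17.0, 9.39 and 9.09 CPM with both compounds against 26.8, 16.3 and 15.5 CPM in Control, and Cx3cr1, a chemokine receptor of microglia, had 2.97, 1.74 and 1.02 CPM with both compounds against 6.90, 4.05 and 3.25 CPM in Control (-1.32 ± 0.27, edgeR adjusted p = 0.00843). Cx3cr1 was the 1 microglial marker past the test, or 2 without CT99021 replicate 1 or GW3965+CT99021 replicate 1 and 3 without CT99021 replicate 3. Aif1 and, of 6 endothelial markers, Tek were below the filter. The 5 tested endothelial markers summed to 67.1, 54.5 and 32.0 CPM with both compounds against 43.9, 46.6 and 40.5 CPM in Control, and 4 oligodendrocyte markers to 39.2, 21.2 and 28.0 CPM with both compounds against 47.5, 40.8 and 25.1 CPM in Control, with 0 of the 4 past the test in edgeR, DESeq2 or limma-voom and 0 at an unadjusted p under 0.05. Flt1, a receptor of endothelial growth factor, was the 1 endothelial marker that rose (1.21 ± 0.26), lost without Control replicate 2 and joined by 1 more without GW3965+CT99021 replicate 3, and 0 fell (1 without GW3965+CT99021 replicate 1 or GW3965 replicate 3). Their part in the other results was not tested.

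Counts in the remaining lists varied, beside 11.3% of all genes higher and 8.95% lower. Of 16 BMP genes 3 rose and 0 fell, or 1 rose without Control replicate 1 or 2, and Bmp2, a ligand, had 9.34, 5.604 and 12.9 CPM with both compounds against 2.78, 1.73 and 6.90 CPM in Control (1.42 ± 0.21, edgeR adjusted p = 0.00223). Of 11 Sonic hedgehog genes the receptor Ptch1 fell by 0.63 (SE 0.11, edgeR adjusted p = 0.00553) and 0 rose, while 3 fell without GW3965+CT99021 replicate 3 or GW3965 replicate 3 and 1 rose without GW3965 replicate 3. Of 13 genes of YAP and TEAD 4 fell, among them Ctgf, a target of YAP, with 25.3, 6.74 and 32.3 CPM with both compounds against 87.1, 46.3 and 38.3 CPM in Control (-1.45 ± 0.36, edgeR adjusted p = 0.0203, lost without Control replicate 1 or 2 or GW3965+CT99021 replicate 1). The 4 were 0 without Control replicate 1, 1 without Control replicate 2 and 2 without Control replicate 3, CT99021 replicate 2, GW3965+CT99021 replicate 1 or 2 or GW3965 replicate 1. Of 25 nuclear receptors other than LXR 3 rose and 5 fell, and Nr4a3, an orphan receptor, had 5.89, 4.92 and 4.84 CPM with both compounds against 14.2, 12.1 and 7.45 CPM in Control (-1.09 ± 0.17, edgeR adjusted p = 0.00284). The 3 were 0 without Control replicate 1 and 1 without Control replicate 3 or GW3965+CT99021 replicate 2 or 3, and the 5 were 2 or 3 without any 1 of the 6 libraries compared or GW3965 replicate 1 or 2. Of 16 genes of p53 and its targets 3 rose and 4 fell, numbers that were 0 or 1 without replicate 1 or 2 of either group, the 4 also without GW3965+CT99021 replicate 3 or GW3965 replicate 1. Of 13 antioxidant genes of Nrf2 3 rose and 0 fell, and 0 or 1 rose without any 1 of the 6 libraries compared. Of 19 rows of G1 cyclins, kinases and inhibitors 1 rose and 5 fell. The 1 that rose was lost without any 1 of the 6 libraries compared, CT99021 replicate 1 or GW3965 replicate 1, and the 5 were 1 without Control replicate 1 or 2 or GW3965+CT99021 replicate 2 and 3 without GW3965+CT99021 replicate 1 or 3. Of 15 immediate early genes 0 rose (1 without CT99021 replicate 3, GW3965+CT99021 replicate 2 or GW3965 replicate 3) and 2 fell, the 2 being 0 without GW3965+CT99021 replicate 1 and 1 without Control replicate 1 or 2, CT99021 replicate 2, GW3965+CT99021 replicate 2 or GW3965 replicate 1 or 2.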

How the data were processed

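RNA from 12 libraries was measured, and the authors deposited 1 table of read counts per feature, with Bowtie and mm9 named in the submitters' processing notes. No source used here gives the counting program, the annotation, strand use or how reads that fit several places were handled. The table holds 23965 gene rows, which were used, and 1217 repeat rows, which were not. Rows with a locus suffix were kept as listed. CPM were computed from the deposited counts with edgeR 4.0.16 in R 4.3.3, after TMM factors of 0.91 to 1.04. Libraries held 9646424 to 21314093 gene counts.

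After filterByExpr, 15608 genes entered edgeR's quasi-likelihood test on all 12 libraries, with group and replicate number as terms and 6 residual degrees of freedom, and p-values were adjusted by Benjamini and Hochberg over all genes. Deviations from group means correlated at 0.496 to 0.828 between libraries of 1 number and at -0.677 to 0.241 between numbers, so the numbers were taken to pair the libraries. The spread between libraries beyond counting noise, which edgeR names the biological coefficient of variation, was 12.7% with this block and 33.4% without. No 2 replicates agreed within sampling noise. limma 3.58.1 (voom) and DESeq2 1.42.0 were alternatives. All 3 fits were tested on simulated data.

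The comparison, the lists and the rule for named genes were chosen with earlier results of these data known. By that rule the text draws on the 12 largest changes each way with a mean of at least 2 CPM and the same direction in all pairs, the 6 largest each way against each single compound, a set of LXR, Wnt and midbrain genes, and up to 5 called members of each list. Other genes were named after their values were seen, as members of the lists and for Prrg4. Symbols Hmgcs1, Disp1 and Hbb-bt had no matching row and some further genes are not reported here, and the list counts leave all of them out. Promoter windows are RefSeq's for GRCm38.p6, whereas positions in the table are mm9 and were not converted. Exact binomial intervals are at 95%.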

Additional observations from a re-analysis of the deposited data

How the results depend on the processing

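Against Control, the 3162 calls were 18 with no replicate block, 1786 in the 6 libraries compared alone with the block and 2 in those 6 without it. They ran between 1176 and 3760 when 1 library was left out. Against CT99021, the 3 calls were 0 with no replicate block (165 at an unadjusted p under 0.05) and 0 in edgeR on the 6 libraries alone, with the block (558) or without it (55). They were 13 in DESeq2, 9 without the 4 libraries numbered 3, 90 when GW3965+CT99021 replicate 2 was left out as well, and 2 to 10 in single omissions. Against GW3965, the 3216 calls were 12 with no replicate block, 2 in the 6 libraries alone without it, and 1394 to 3685 in single omissions. The difference from the sum of both compounds gave 60 calls without the libraries numbered 3 and GW3965+CT99021 replicate 2, and 0 in edgeR otherwise. With library totals 47.4% of the calls against Control were higher, in place of 55.8%. The cause of these shifts was not tested.

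Among genes named in the text or by the rule, 4284 refits kept direction and side of the test, 961 lost the call, 39 gained one and 26 turned sign, all 26 in genes with no call. Single omissions gave log2 fold changes of -0.32 to 0.92 for Col9a1, -0.32 to 0.11 for Nr4a2, -0.20 to 0.0849 for Lmx1a, -0.19 to 0.04057 for Mbp, -0.0692 to 0.10 for Sqstm1, -0.02159 to 0.13 for Gsk3b and -0.14 to 0.05494 for Apoe. Without the libraries numbered 3 the values were -0.05269 for Matn4, 0.10 for Nr4a2, 0.03838 for Lmx1a, -0.12 for Sqstm1 and 0.0009421 for Apoe. Leaving out GW3965+CT99021 replicate 2 as well kept 1 library with both compounds, so the values then rest on that library. They were -2.17 for Col9a1, -1.18 for Matn4, 0.005311 for Rrm1, -0.06538 for Sqstm1, 0.01981 for Ctnnb1 and 0.04913 for Apoe. With library totals Sqstm1 had -0.01488.

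Depth limits genes at a few CPM, such as Wnt3a, Frat1 and Th, where 1 library can decide the estimate.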
